A study of Rattus norvegicus with 352 samples.

Results

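The receptors described here are 35 genes that bind dopamine, serotonin, noradrenaline, acetylcholine (at muscarinic receptors) or histamine. They were chosen by name from a list of receptor symbols, and all 35 were found among the 38354 genes of the table: 5 for dopamine, 14 for serotonin, 8 for noradrenaline, 5 for acetylcholine and 3 for histamine. Expression was measured by polyA RNA sequencing of whole brain hemispheres from naive, untreated heterogeneous stock rats, an outbred laboratory population. The labels give a single group, with no treatment, time point, age or sex, and nothing in them states outright that each library comes from a different rat, as is assumed here. No contrast between conditions exists, so the questions were how abundant each receptor was, how far it varied between rats, and with which other genes it moved.

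Monoamines, histamine and acetylcholine are released by small groups of neurons in the brainstem, hypothalamus and basal forebrain whose axons reach most of the brain. Nearly all their receptors are G protein-coupled: Gs receptors raise cyclic AMP, Gi receptors lower it, and Gq receptors release calcium through phospholipase C, while the serotonin receptors Htr3a and Htr3b are subunits of an ion channel. Receptor RNA is made in the cells that receive the signal, or in the releasing neuron itself for autoreceptors, so each receptor has a regional pattern that a whole hemisphere averages.

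The libraries held between 5418230 and 42980793 estimated counts, with a median of 21881769. A level here means log2(CPM + 1), with CPM the estimated counts of a gene in 1000000 of its library. They are not corrected for transcript length, so they are compared between rats and not between genes unless stated. Markers of the labelled tissue were present: all 7 general neuronal genes, all 8 astrocyte genes and all 9 oligodendrocyte genes of the marker lists reached a mean level of 1. A single library stood apart. It held 1.05 CPM of the cerebellar granule cell gene Gabra6, against at least 78.7 CPM in every other library, and 0.433 CPM of the Purkinje cell gene Pcp2 against at least 23.3. The same library had the highest Drd1, Drd2 and Hrh3 level of all libraries. Left out, it changed the call of none of the 56 relations tested below, none of which uses the cerebellar score. Of 750 slopes of receptors on marker scores, 13 lost and 3 gained a call without it.

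Of the receptors, 30 had a mean level of 1 or more, and 17 reached a mean of 10 CPM. The exceptions under 1 were Drd3, Drd4, Htr2b, Htr3b and Adrb3. All 35 receptors together took 817.0 ± 29.98 CPM of a library (mean ± SD over all libraries), from 734.3 to 942.7. Acetylcholine receptors gave 26.3 ± 0.75% of that sum, serotonin receptors 24.5 ± 1.38%, noradrenaline receptors 21.7 ± 0.84%, histamine receptors 19.3 ± 1.18% and dopamine receptors 8.19 ± 0.49%. By coupling, Gq receptors gave 45.1%, Gi receptors 41.4%, Gs receptors 12.7% and the channel subunits 0.797%. These shares count reads, which long transcripts collect in greater number.

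**Figure D1:**
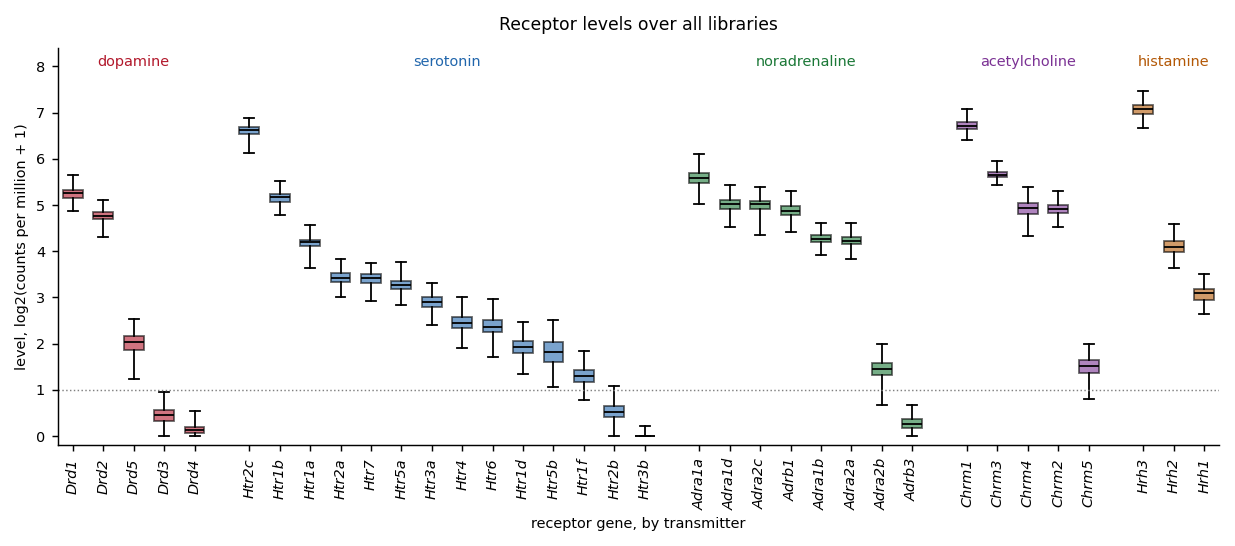
Level of each receptor over all libraries, log2(CPM + 1), grouped by transmitter; boxes span the quartiles, the black line is the median, whiskers reach the lowest and highest library, and the dotted line marks a level of 1. Hrh3, Chrm1 and Htr2c lie highest (medians 7.08, 6.71 and 6.62), and Drd3, Drd4, Htr2b, Htr3b and Adrb3 lie under the line at the median.

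The spread of receptors between rats centred on that of genes of like level. The SD of each gene was divided by the SD that a smooth trend of all genes gives at the same mean level. Over the 30 receptors tested this ratio ran from 0.768 to 1.74 with a median of 1.01, beside a median of 0.987 for all 16683 genes tested. The ratio was 1.5 or more for 3 of 30 receptors, beside 12.4% of all genes, and 2 or more for 0 of 30, beside 5.22%. It was above 1 for 15 of 30, beside 48% of all genes. The 3 were the histamine receptor Hrh3 (1.74 times), the muscarinic receptor Chrm4 (1.66) and the adrenergic receptor Adra1a (1.65). Among serotonin receptors Htr2c had the highest ratio, 1.40 times, followed by Htr5b with 1.31, and Htr5a had the narrowest spread of all, 0.768 times. Between the 5th and 95th percentile of rats, levels of tested receptors spanned 1.23-fold (Chrm3) to 2.48-fold (Htr5b), and counting alone accounts for 23.7% of the variance of Htr5b and 3.91% of that of Hrh3. It accounts for more than 50% for Adra2b (66.2%), Htr1f (61.3%), Chrm5 (58.9%), Htr5a (58.8%), Htr1d (52.1%) and Htr4 (50.2%), which limits what their relations can show.

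**Figure D2:**
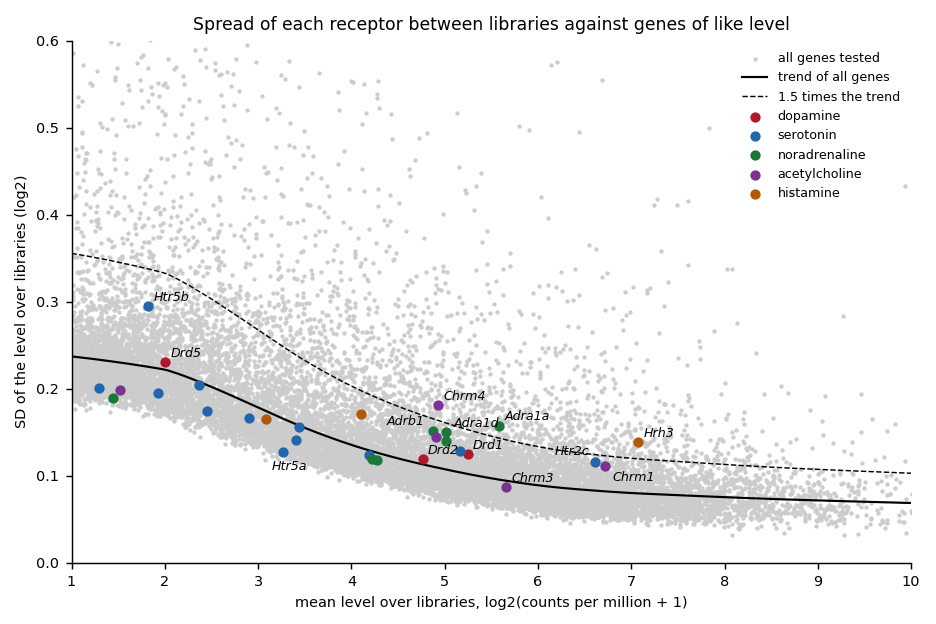
SD of the level over libraries (log2) against the mean level, log2(CPM + 1), for all genes tested (grey) and the 30 receptors tested (coloured by transmitter); the solid line is the trend and the dashed line 1.5 times the trend. Hrh3, Chrm4 and Adra1a are the only receptors above the dashed line, and Htr5a and Chrm3 lie below the trend; genes with an SD above 0.6 or a mean above 10 fall outside the axes.

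No receptor fell into separate levels between rats by the mixture rule, beside 0.803% of all genes. Libraries whose identifiers begin alike were compared as blocks, a possible batch that the labels do not describe. None of the 30 receptors differed between the 7 blocks of 8 or more libraries at an adjusted p under 0.05 in limma's moderated F-test, beside 8.21% of all genes. At an unadjusted p under 0.05, 8 of 30 did, beside 26.8% of all genes, and the smallest adjusted p was 0.0714, for Htr5b.

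Among dopamine receptors, Drd1 and Drd2 followed the markers of striatal projection neurons, the cells of the caudate-putamen that carry them. Genome positions here are on GRCr8. The Gs-coupled Drd1 (chromosome 17, 10545488 to 10550029), the receptor of the direct pathway, lay at 4.88 in the lowest library, 5.25 at the median and 5.65 in the highest (mean 5.25 ± 0.12). The Gi-coupled Drd2 (chromosome 8, 58605403 to 58669339), which marks the indirect pathway and also acts as an autoreceptor on dopamine neurons, lay at 4.31, 4.77 and 5.11 (mean 4.76 ± 0.12). Both varied smoothly, with no gap between low and high rats.

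The score of striatal projection neurons is the mean z-score of 13 marker genes, among them Pde10a, Adora2a, Penk and Tac1, none of them a receptor of the list. Drd2 rose with this score at r = 0.72 (rho = 0.69), and 0.018% of the other genes had a higher r. Within the 7 identifier blocks r ran from 0.64 to 0.82, and without the 2 libraries of most extreme score it was 0.70. Drd1 rose with it at r = 0.62 (rho = 0.59, or 0.60 with 2 libraries left out), with 0.216% of genes higher. Within blocks Drd1 ran from -0.28 to 0.82 and was positive in 6 of 7. Drd1 and Drd2 also rose with each other (r = 0.52, rho = 0.48, 0.51 without 2 libraries, within blocks 0.04 to 0.75). Here and below, a relation between a receptor and a score or gene was tested by 100000 permutations, two-sided, with Benjamini-Hochberg adjustment over all 56 computed. Of these, 36 pair a receptor with markers of a site where it is known or with a related receptor, and 25 of them passed an adjusted p of 0.05. Calls were common among genes at large: in limma fits, 48.8% of slopes of all genes on the marker scores passed the same threshold. Among the 25, Drd2 with midbrain dopaminergic and Htr2b with meningeal markers passed with a negative r, and Adra2a with noradrenergic markers passed for r and not for rho. Several were weak: more than 15% of all genes had a higher r than Htr4, Htr2a, Htr1f, Adra1b, Chrm5, Hrh1 and Adra2a with the same score (19.3%, 18.5%, 23.03%, 18.9%, 16.6%, 17.5% and 15.7%). The other 20 were picked after the values were seen. Unless another value is given, the permutation p is 1e-05 for r and for rho, the smallest these permutations can give (adjusted 1.56e-05). When the 2 libraries of most extreme score were dropped, r kept its sign in every relation except that of Adra2b with smooth muscle markers, which was near 0. In a whole hemisphere, fewer cells of a type and less RNA per cell cannot be told apart.

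The stretch before the Drd2 start site is shown because Drd2 had the closest tie of all receptors to the striatal score. It is the 250 bases before the start at chr8:58605153-58605402 (GRCr8, plus strand, RefSeq), with matches to the GC box GGGCGG on either strand in capitals.

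Drd2: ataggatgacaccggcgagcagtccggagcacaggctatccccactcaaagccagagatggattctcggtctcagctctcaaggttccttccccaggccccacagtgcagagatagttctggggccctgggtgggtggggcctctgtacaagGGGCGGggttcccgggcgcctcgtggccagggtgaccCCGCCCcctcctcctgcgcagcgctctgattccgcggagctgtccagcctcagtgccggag

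Drd2 held 2 GC boxes and no match to the cyclic AMP response element core TGACG, the E-box CACGTG or the TATA box TATAAA. Of the 35 receptors, 27 had a promoter in the RefSeq table. A GC box was found in 48.1% of these, beside 48.6% of promoters of all genes tested, and TGACG in 22.2% beside 23.8%. None of the 27 held TATAAA or CACGTG, beside 7.58% and 7.37% of promoters of genes tested.

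The remaining dopamine receptors were scarce. Drd5, like Drd1 coupled to Gs (chromosome 14, 76700244 to 76703344), lay between 1.24 and 2.52 (median 2.03). It showed no relation with the hippocampal score (r = 0.03, permutation p = 0.62). Drd3, known from the ventral striatum, had a mean of 0.379 CPM and was not related to the striatal score (r = -0.07, permutation p = 0.212) or to Drd2 (r = -0.07, permutation p = 0.172), although 3 counts in the smallest library amount to 0.554 CPM, so a relation may not be detectable at this depth. Drd4 had a mean of 0.11 CPM and was at 0 in 15.5% of libraries. Drd2 fell slightly as markers of midbrain dopamine neurons rose (r = -0.21, rho = -0.22, adjusted p = 0.000215 by permutation), and this did not hold with the first 2 principal components as covariates (r = -0.02) and was 0.77 in the values as deposited, which are not scaled for depth.

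Among serotonin receptors, Htr2c (chromosome X, 115453190 to 115682325), the Gq receptor of choroid plexus and many subcortical neurons, lay between 6.12 and 6.89 with a median of 6.62. Htr1b, a Gi receptor found on axon terminals, lay between 4.78 and 5.52. Htr1a, the Gi autoreceptor of raphe neurons that hippocampus and cortex also express, lay between 3.63 and 4.57. Htr2a, Htr7, Htr5a, Htr3a, Htr4 and Htr6 had means between 2.37 and 3.44. Htr1d, Htr5b and Htr1f stood at 1.93, 1.82 and 1.30. Htr2b and Htr3b were near the floor: Htr3b, a subunit of the serotonin-gated channel, was at 0 in 88.9% of libraries, and Htr2b lies wholly within the span of Psmd1, a proteasome gene with a mean level of 7.35.

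The non-receptor genes most like Htr2c in pattern over libraries were Slc17a6 (r = 0.76), Tmem255a (0.76), Rab9b (0.72), Peg3 (0.69) and Gpr165 (0.68). Htr2c rose with choroid plexus markers such as Ttr (r = 0.57, rho = 0.53, 0.54 without 2 libraries, within blocks 0.39 to 0.62). This tie was not particular to choroid plexus, as Htr2c had r = 0.63 with cholinergic, 0.59 with midbrain dopaminergic and 0.57 with hypothalamic markers. It was also higher where brainstem, thalamic and midbrain markers were higher: per SD of the score it rose by 0.06 on the log2 scale with caudal brainstem and thalamic scores and by 0.07 with midbrain dopaminergic markers. It fell as cortical markers rose, by 0.06 per SD. The Gs-coupled Htr7 rose with thalamic markers (r = 0.37, rho = 0.36, 0.36 without 2 libraries), where this receptor is known to be made, and r was positive in all 7 blocks (0.14 to 0.78).

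Htr5b, a Gi-coupled receptor known from the habenula and hindbrain, followed the markers of those regions and had the widest fold range. It lay at 1.06 in the lowest library, 1.82 at the median and 2.51 in the highest. It rose with the habenular score (r = 0.42, rho = 0.43, from 0.02 to 0.56 within blocks) and with the caudal brainstem score of Hox and glycinergic genes (r = 0.59, rho = 0.68, within blocks 0.47 to 0.85). The habenular tie was not particular to that region. Htr5b had a higher r with cholinergic (0.53), choroid plexus (0.52), midbrain dopaminergic (0.48) and astrocyte (0.44) markers. The non-receptor genes most like it in pattern over libraries, named after the values were seen, were Pou4f1 (r = 0.69), Trh (0.66) and C1ql1 (0.65). Pou4f1 is a transcription factor of medial habenula and inferior olive and a member of the habenular list.

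Serotonergic markers varied widely between libraries. Tph2, the enzyme that starts serotonin synthesis, had an SD of 5.26 times the trend, and its level ran from 0.45 to 4.12. The score of these markers leaned to 2 overlapping ranges without meeting the rule for separate levels, so the 4 of 56 relations that use it, of Htr1a, Htr2c, Htr5b and Chrm2, are not given.

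Other serotonin receptors were tied weakly or not at all to the markers of the regions where they are known. The cortical Gq receptor Htr2a rose with cortical excitatory markers (r = 0.23, rho = 0.23, 0.20 without 2 libraries, within blocks -0.08 to 0.57), but with 2 principal components as covariates r was 0.10 (adjusted p = 0.0745 by permutation). Htr6, a Gs receptor of the striatum, rose with striatal markers (r = 0.37, rho = 0.37, positive in 6 of 7 blocks). This tie was not particular to the striatum, as Htr6 had a higher r with cortical excitatory markers (0.43). Htr4 also rose with striatal markers (r = 0.19, adjusted p = 0.000574 by permutation, and r = 0.09 with the components). Htr1b, which striatal projection neurons also make, did not (r = -0.06, permutation p = 0.285). Htr1a did not follow hippocampal markers (r = 0.06, permutation p = 0.231), although under median ratio scaling r was 0.15 (adjusted p = 0.0068). Htr3a did not follow markers of caudal interneurons, the cortical cells that carry it (r = -0.11, adjusted p = 0.0553 by permutation). The pairs Htr2a with Htr2c (r = -0.04) and Htr3a with Htr3b (r = -0.02) were not related either (permutation p = 0.51 and 0.713).

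The closest non-receptor genes of Htr1b were Chordc1 (r = 0.66), Hspa5 (0.64), Dnajc3 (0.62), Spred1 (0.61) and Pdia4 (0.61), named after the values were seen. With Hspa5, a chaperone gene, rho was 0.66 and r ran from 0.43 to 0.76 within blocks.

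Among noradrenaline receptors, Adra1a (chromosome 15, 45005648 to 45111416), a Gq receptor of cortical and brainstem neurons, lay at 5.03 in the lowest library, 5.59 at the median and 6.11 in the highest. Adra1d lay between 4.53 and 5.44, Adra2c between 4.35 and 5.39, Adrb1 between 4.42 and 5.29, Adra1b between 3.93 and 4.62 and Adra2a between 3.83 and 4.62. Adra2b had a mean of 1.75 CPM, and Adrb3, known from brown fat, 0.218 CPM. Adra1a is among the 3 receptors of wide spread, and its slopes on the striatal and cortical scores passed no test (-0.00365 and 0.0146 per SD, limma adjusted p = 0.736 and 0.121). The non-receptor genes most like it in pattern were Slc4a8 (r = 0.60), the astrocyte glutamate transporter gene Slc1a2 (0.59), Tanc2 (0.59), the glutamate receptor gene Grin2b (0.57) and Vps13d (0.57).

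The beta receptor Adrb1 (chromosome 1, 265777103 to 265780114), which couples to Gs, moved with immediate early genes, transcripts that neurons make within minutes of firing. It lay at 4.42, 4.87 and 5.29 in the lowest, median and highest library. Against the score of 12 such genes r was 0.68 (rho = 0.67, 0.67 without 2 libraries, 0.68 with 2 principal components), positive in all 7 blocks (0.08 to 0.80). Of all other genes, 0.108% had a higher r with that score. Its 5 closest genes were all members of that list: Junb (r = 0.70), Nr4a1 (0.68), Egr4 (0.68), Arc (0.68) and Egr1 (0.67). This relation and those genes were picked after the values were seen. Adrb1 also rose with cortical markers (r = 0.43, rho = 0.41, within blocks 0.24 to 0.85).

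The muscarinic receptor Chrm4 (chromosome 3, 98349080 to 98356821), a Gi receptor of striatum and cortex, also rose with immediate early genes. It lay at 4.34 in the lowest library, 4.93 at the median and 5.395 in the highest, and its r with the score was 0.60 (rho = 0.60, 0.59 without 2 libraries, 0.59 with the components, within blocks 0.15 to 0.74), with 0.24% of genes higher. Its 5 closest non-receptor genes were the clock gene Per1 (r = 0.71, rho = 0.72, within blocks 0.58 to 0.78), Spata2L (0.69), Bhlhe40 (0.69), Midn (0.68) and Klf10 (0.68). Chrm4 was tied less to striatal markers (r = 0.31, rho = 0.30, within blocks 0.07 to 0.76) and to Drd1 (r = 0.46, rho = 0.44, within blocks 0.17 to 0.54), beside which it is made in direct-pathway neurons. With cortical excitatory markers its r was higher than with striatal markers (r = 0.42, rho = 0.42, within blocks 0.33 to 0.70), a relation picked after the values were seen. The annotated ends of Chrm4 and Mdk share 33 bases, and the r between these genes was -0.13.

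In limma fits over all genes, 6 of 30 receptors rose with the immediate early gene score and 5 fell, beside 15% and 12.2% of all genes. The remaining 4 that rose were Htr1b, Drd1, Adra2c and Hrh3, with slopes of 0.04, 0.03, 0.03 and 0.02 per SD, against 0.11 for Chrm4 and 0.10 for Adrb1 (standard errors of 0.0078 and 0.006). Htr1a, Htr2c, Chrm1 and Drd2 were among those without a call.

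The promoters of the 2 receptors tied to immediate early genes are shown for comparison, each as 250 bases before the start on the plus strand of GRCr8 from RefSeq. Adrb1 is at chr1:265776853-265777102 and Chrm4 at chr3:98348830-98349079. Capitals mark matches to TGACG and to GGGCGG on either strand.

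Adrb1: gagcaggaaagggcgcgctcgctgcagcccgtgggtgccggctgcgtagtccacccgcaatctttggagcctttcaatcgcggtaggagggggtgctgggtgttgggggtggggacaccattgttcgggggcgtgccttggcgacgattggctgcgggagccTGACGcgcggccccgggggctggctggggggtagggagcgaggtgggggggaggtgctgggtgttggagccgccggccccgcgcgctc

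Chrm4: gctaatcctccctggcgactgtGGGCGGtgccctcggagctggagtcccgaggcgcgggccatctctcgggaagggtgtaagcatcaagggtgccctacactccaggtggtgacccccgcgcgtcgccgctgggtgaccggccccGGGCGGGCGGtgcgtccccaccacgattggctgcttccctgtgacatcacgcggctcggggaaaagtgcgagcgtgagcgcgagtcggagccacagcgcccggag

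Adrb1 held 1 match to TGACG and no GC box, and Chrm4 held 3 GC boxes, 2 of them overlapping, and no TGACG. Both were rich in CpG, with 24 and 28 of these pairs against a median of 13 over promoters of genes tested.

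**Figure D3:**
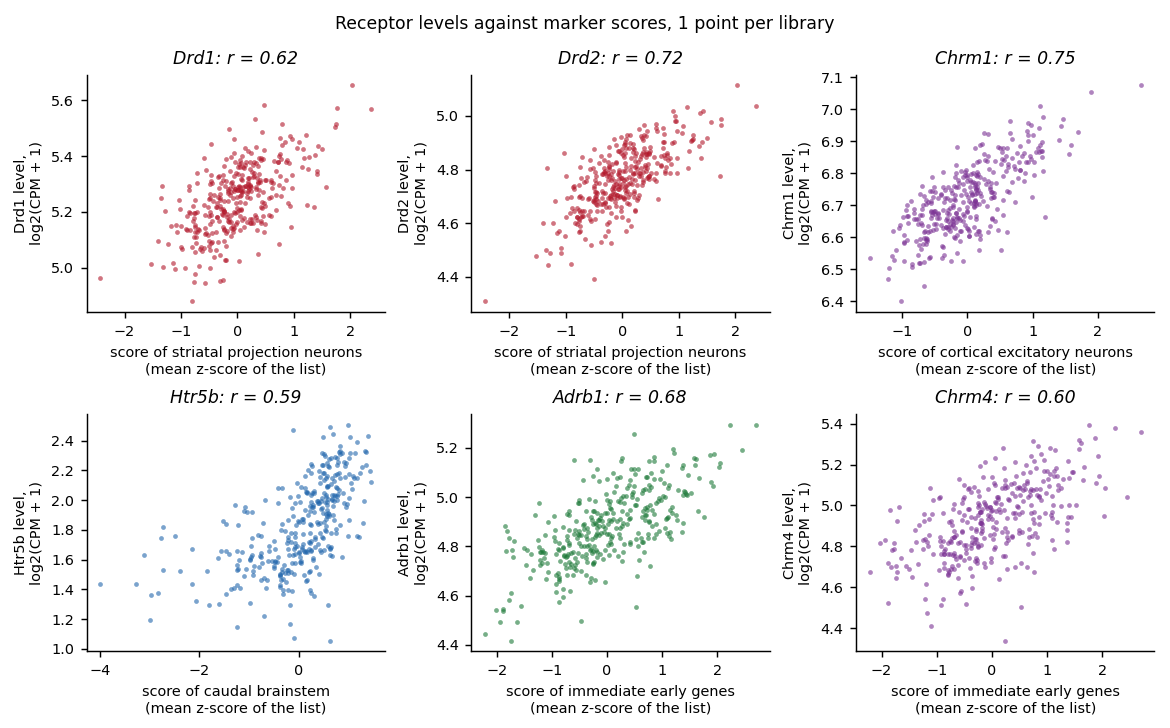
Level of 6 receptors, log2(CPM + 1), against the score of a marker list (mean z-score), 1 point per library, coloured by transmitter. Drd1 and Drd2 rise with striatal markers, Chrm1 with cortical markers, Htr5b with caudal brainstem markers, and Adrb1 and Chrm4 with immediate early genes, with r from 0.59 to 0.75 and no gap in the levels; a tail of libraries with low caudal brainstem scores is seen for Htr5b.

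Among the other muscarinic receptors, Chrm1 followed the cortex. Chrm1 (chromosome 1, 214996180 to 215012136), the main Gq muscarinic receptor of cortical and hippocampal pyramidal neurons, lay at 6.40 in the lowest library, 6.71 at the median and 7.07 in the highest. It rose with cortical excitatory markers at r = 0.75 (rho = 0.70, 0.73 without 2 libraries, within blocks 0.47 to 0.77), with 0.09% of genes higher. Its closest non-receptor genes were Fbxl16 (r = 0.75), the kainate receptor gene Grik5 (0.74), Cracdl (0.73), Camkv (0.71) and Ngef (0.70). Chrm3, also a Gq receptor, rose with the same markers (r = 0.41, rho = 0.38, within blocks 0.09 to 0.81) over a narrow range from 5.44 to 5.95.

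Chrm2 (chromosome 4, 65981136 to 66116128), the Gi autoreceptor of cholinergic neurons, ran the other way and followed the brainstem. It lay between 4.52 and 5.31 (median 4.91) and rose with cholinergic markers such as Chat (r = 0.44, rho = 0.41, positive in 6 of 7 blocks) and with caudal brainstem markers (r = 0.48, rho = 0.46, within blocks 0.35 to 0.64). It fell with cortical markers, by 0.06 per SD. The cholinergic tie was not particular to those cells, as Chrm2 had r = 0.46 with midbrain dopaminergic and 0.39 with thalamic markers. Chrm5, known from midbrain dopamine neurons, rose weakly with their markers (r = 0.21, rho = 0.22, adjusted p = 0.000162 by permutation, within blocks -0.09 to 0.29) at a mean of 1.89 CPM. Its span shares 38236 bases with Aven, and the r between these genes was -0.03.

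Among histamine receptors, Hrh3 had the widest spread for its level of all receptors tested. Hrh3 (chromosome 3, 187569174 to 187575263), the Gi autoreceptor of histamine neurons that striatum and cortex also make, lay at 6.68, 7.08 and 7.46 in the lowest, median and highest library. It rose with cortical markers (r = 0.56, rho = 0.53, within blocks 0.31 to 0.63), with striatal markers (r = 0.47, rho = 0.46, positive in 6 of 7 blocks) and most with Chrm1 (r = 0.71, rho = 0.69, 0.70 without 2 libraries, within blocks 0.51 to 0.93). Of all other genes, 0.006% had a higher r with Hrh3 than Chrm1 had. The closest non-receptor genes of Hrh3 were Grik5 (r = 0.77), Fbxl16 (0.71), Camkv (0.70), C2cd2l (0.68) and Stk32c (0.66), of which 3 are also among the 5 closest of Chrm1.

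Hrh2 (chromosome 17, 10371083 to 10412979), a Gs receptor of cortex and striatum, lay between 3.65 and 4.59 and fell as choroid plexus markers rose (r = -0.54, rho = -0.54, within blocks -0.79 to -0.07). With 2 principal components as covariates that r was -0.18, and in the values as deposited, not scaled for depth, it was 0.64. Hrh1, a Gq receptor of neurons and astrocytes (chromosome 4, 149120511 to 149204267), lay between 2.65 and 3.50 and rose weakly with astrocyte markers (r = 0.17, rho = 0.16, adjusted p = 0.00171 by permutation, within blocks -0.08 to 0.28).

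**Figure D4:**
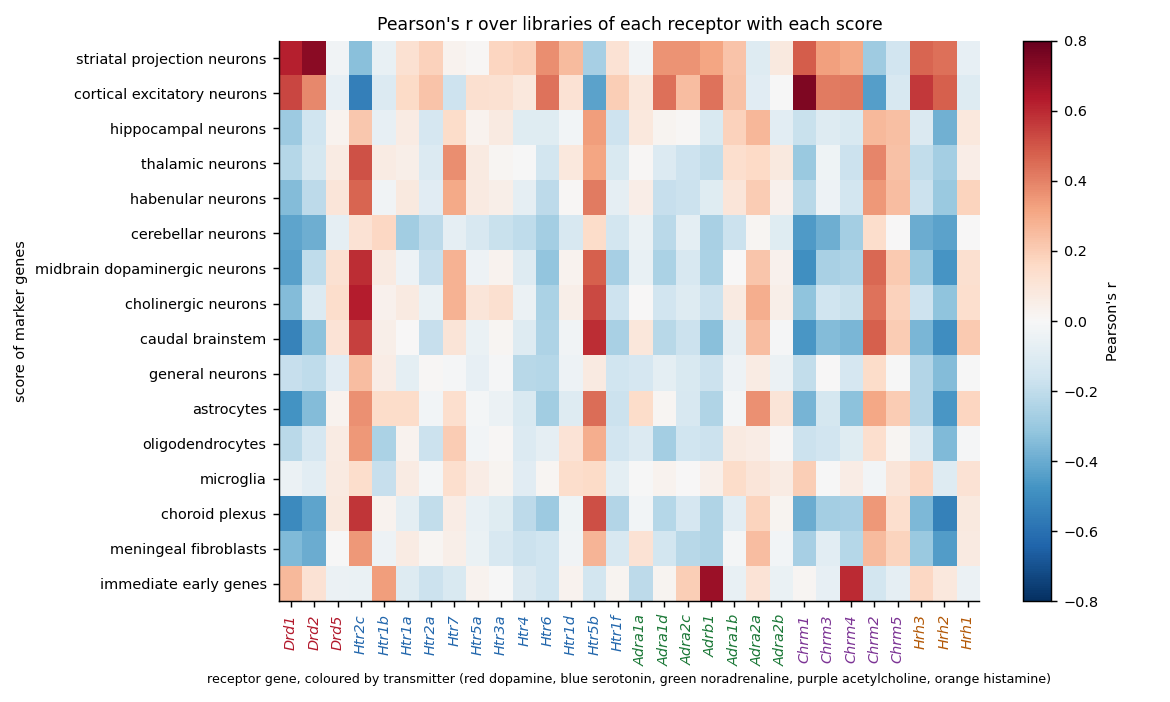
Pearson's r over libraries between each of the 30 receptors tested (columns, ordered by transmitter and level) and 16 marker scores (rows); red is positive and blue negative, to a limit of 0.8. Drd1, Drd2, Chrm1, Hrh3 and Hrh2 are red for striatal and cortical scores and blue for brainstem, midbrain and choroid plexus scores, Htr2c, Htr5b and Chrm2 show the reverse, and Adrb1 and Chrm4 stand out in the bottom row of immediate early genes.

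More receptors rose than fell with striatal and with cortical markers. With striatal markers 17 of 30 receptors rose and 4 fell in limma's fits over all genes at an adjusted p under 0.05, beside 30.7% and 25.2% of all genes. With cortical markers 17 rose and 5 fell, beside 33.8% and 29.2%. With 2 principal components as covariates the counts were 16 and 2 for striatal and 17 and 3 for cortical markers, beside 18.3% and 28.4%, and 15.1% and 32.5%, of all genes. The 4 that fell with striatal markers were Htr5b, Chrm2, Htr2c and Chrm5, and these with Htr7 fell with cortical markers. Cerebellar markers ran opposite: 18 of 30 receptors fell and 3 rose, beside 33.1% and 19.8% of all genes, and with the components 16 fell and 0 rose, beside 17.8% and 19.3%. Without the library of lowest cerebellar score, an alternative chosen after seeing the data, 19 fell and 0 rose. The share of all genes is not given for that setting, so this count is not read as an excess. Without covariates, markers of other forebrain regions gave no such excess: 7 of 30 rose and 8 fell with hippocampal markers, beside 19.4% and 36.8% of all genes, 7 and 9 with habenular markers (19.7% and 31.1%), and 7 and 11 with hypothalamic markers (27.3% and 33.6%). With the components, 5 of 30 rose and 1 fell with hippocampal markers (12.6% and 15.9% of all genes). The counts were 6 and 3 with habenular markers (10% and 5.51%), and 6 and 2 with hypothalamic markers (16.1% and 6.32%). With thalamic markers 7 of 30 rose and 10 fell (21% and 31.3% of all genes), with midbrain dopaminergic markers 8 and 13 (28.4% and 38.2%) and with caudal brainstem markers 6 and 13 (24.9% and 40.7%). Htr2c, Htr5b and Chrm2 rose with all 3 of these scores. Adra2a (r = 0.16, 0.22 and 0.25, in the same order) and Chrm5 (0.23, 0.21 and 0.20) had smaller positive r with all 3. With the components as covariates, Htr5b no longer passed for thalamic markers (limma adjusted p = 0.239) or for striatal markers (0.196), nor did Chrm5 for striatal markers (0.245). In the cerebellar fits the largest falls were those of Hrh2, Htr6 and Hrh3 (0.07, 0.06 and 0.05 per SD of the score).

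Receptors that share a transmitter had a median r near that of all pairs. Over the 435 pairs of tested receptors the median r was 0.05, and over pairs that share a transmitter 0.04, as a description with no test. An r over 0.3 was seen in 26 pairs, 6 of them of the same transmitter, and under -0.3 in 10 pairs. The highest was Chrm1 with Hrh3 and the lowest, at -0.46, was Chrm1 with Chrm2, which bind the same transmitter. Htr2c and Chrm2, both high with brainstem markers, rose together (r = 0.54, rho = 0.52, within blocks 0.23 to 0.75), and Htr2c fell as Chrm1 rose (r = -0.43, rho = -0.39, negative in 6 of 7 blocks, but 0.88 in the values as deposited, not scaled for depth).

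The share of receptors most alike to a gene nearby on the chromosome was near that of all genes. For 2 of 30 receptors, Hrh1 and Htr1d, the gene of highest r lay within 1 Mb, beside 6.97% of all genes tested, and 5 of 30 had at least 1 of their 5 closest genes within 1 Mb, beside 11.4%. Hrh1 had r = 0.56 (rho = 0.58, within blocks 0.51 to 0.77) with LOC134486833 and 0.52 with LOC120102367, both 0.21 Mb away and starting at the same base, 149372350, so that their reads may not be told apart, and 0.37 with the autophagy gene Atg7 at 0.33 Mb. The 5 genes closest to Htr1d, a Gi receptor of axon terminals, were C1qc (r = 0.28), Asap3 (0.28), Pithd1 (0.27), C1qa (0.27) and Rpl11 (0.26), all within 0.47 Mb. Drd5 was tied most to Man2b2, a lysosomal mannosidase gene 1.505 Mb away (r = 0.45, rho = 0.44, within blocks 0.02 to 0.67), to LOC103693769 at 1.58 Mb (0.40) and to Stk32b at 0.73 Mb (0.27). Among the genes between Drd5 and Man2b2, Stk32b had the highest r and Tmem128, at 0.05 Mb, had 0.14. The genes named for Hrh1, Htr1d and Drd5 were picked after the values were seen, and no genotype was analysed here.

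**Figure D5:**
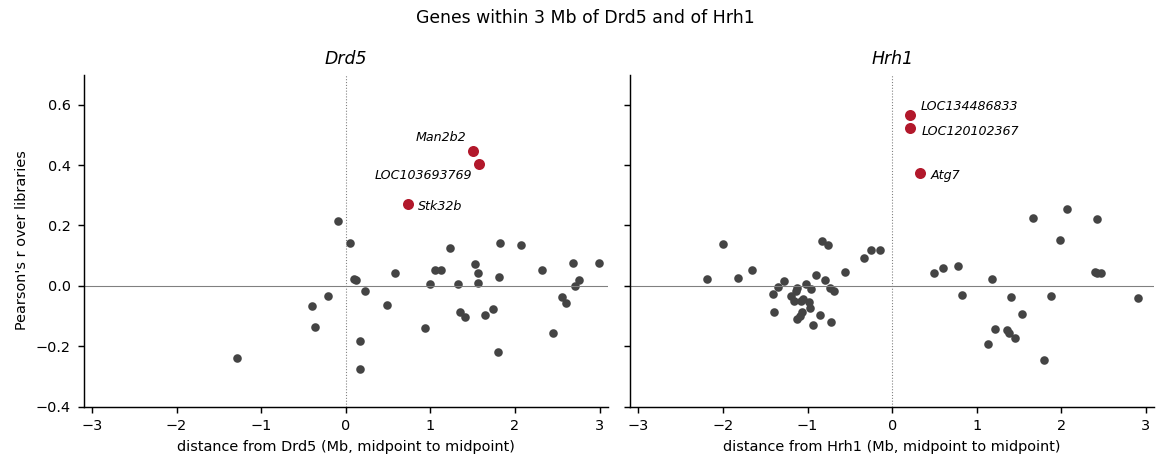
Pearson's r over libraries with Drd5 (left) and Hrh1 (right) of each gene tested within 3 Mb, against the distance between gene midpoints in Mb; red points are the 3 highest, named in the plot. For Drd5 the highest points lie at 1.505 and 1.58 Mb, past many genes near 0, and for Hrh1 they lie together at 0.21 to 0.33 Mb.

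For the 10 receptors whose whole gene spans under 5 kb, CPM per kb of gene span was set side by side. Transcript lengths were not available, and a span can differ from the transcript that is counted. The order is therefore one of reads per span and only a rough guide to levels. Adra2c came first at 16.01 ± 1.58, above Adrb1 at 9.496 ± 1.03 in 100% of libraries. Adrb1 was above Drd1 (8.17 ± 0.73) in 91.8%, Drd1 above Adra2a (6.32 ± 0.55) in 96.8%, and Adra2a above Htr1a (3.79 ± 0.35) in 100%. Htr1f (1.06 ± 0.25) and Drd5 (0.989 ± 0.20) did not differ beyond their spread, with Htr1f higher in 58.5% of libraries. Adra2b, Adrb3 and Drd4 followed at 0.432, 0.0777 and 0.0345.

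The genes that make and clear these transmitters included several of wide spread between rats, and the genes that carry receptor signals few. Of 20 genes for synthesis, transport and breakdown, 10 reached a ratio to the trend of 1.5 or more (median 1.49), beside 12.4% of all genes. They included Tph2 (5.26 times), the serotonin transporter gene Slc6a4 (4.50), the decarboxylase gene Ddc (2.30), the tyrosine hydroxylase gene Th (1.96) and the vesicular monoamine transporter gene Slc18a2 (1.67). Maoa, which breaks down monoamines, had 0.859 times. Of 32 genes for G proteins, cyclases, kinases, arrestins and their regulators, 3 reached 1.5 times (median 0.896): the cyclase gene Adcy1 (2.57), the striatal regulator Rgs9 (1.79) and the phospholipase gene Plcb1 (1.54). The G protein genes Gnao1 (0.589) and Gnaq (0.659) were among the most even. The difference between these lists was not tested.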

How the data were processed

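RNA of whole brain hemispheres was extracted with TRIzol, and a directional NEBNext kit was used for the polyA libraries, per the labels' protocols. The deposited table holds log2 values per gene, which the authors made with kallisto (per the submitters' processing notes). The sources used here do not give its version, settings or strand option. The genome build is rn8 per the name of the deposited table. Of 352 samples in the labels, 342 had a column and 10 were not analysed here; 14 libraries carry a corrected name, and 0 columns stayed unmatched.

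Estimated counts were had back by raising 2 to each value and subtracting 1. Of turned-back values between 0.5 and 5, 63.2% were whole within 0.002, so no count model was used. Libraries were scaled to a total of 1000000 and taken as log2(CPM + 1). Genes of mean level 1 or more (16683 of 38354) were tested. Depth ran from 5418230 to 42980793 estimated counts, and a floor of 3 counts covers counting error only. The closest pair of libraries still differed beyond sampling noise (chi-square per degree of freedom 4.00).

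The trend of SD on level was a lowess fit (fraction 0.3). A score is the mean z-score of the list members of level 1 or more. Slopes and block differences were tested with limma 3.58.1 (R 4.3.3, moderated tests with a trend), Benjamini-Hochberg adjusted over all genes. Blocks share the first 6 characters of the identifier, and 7 blocks of at least 8 libraries hold 335 libraries; their meaning is not in the labels. Separate levels needed a 2-component mixture better by a BIC of 10, means 4 SD apart and 5% of libraries in the smaller part. Relations used 100000 permutations (10000 in alternatives). Python 3.11.15, numpy 2.4.6, scipy 1.17.1, statsmodels 0.14.6 and pandas 2.3.3 were used, and the steps were tested on simulated data. Alternatives were another pseudocount (0.1), median ratio scaling, unscaled values, removed block means, other level minimums (3, none), principal components or the library total as covariates, and libraries left out.

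The receptors, lists and tests were chosen with earlier results of these data known. All 35 receptors are named; for the receptor of highest CPM for each transmitter and those of SD at least 1.5 times the trend, the 5 most alike genes are named, and others are said to be picked after seeing values. The p-values reflect only how these libraries vary. Promoter sequences are from RefSeq (GRCr8).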

Additional observations from a re-analysis of the deposited data

How the results depend on the processing

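No paired analysis was possible because all libraries belong to a single group, and leaving out replicates in turn was not applicable to a group of this size. Values as deposited are not scaled for depth: with them 0 receptors passed 1.5 times the trend in spread (3 when scaled), beside 2.26% of all genes. With them 11 of 30 differed between blocks (0 when scaled), beside 36.04% of all genes, 6 fell into separate levels (0 when scaled), beside 41.2%, and, for receptors that move with a region or cell type score, 100% of slopes were called (50.3% when scaled), beside 99.8% and 48.8% of slopes of all genes, and 406 of 750 receptor slopes changed sign. With those values 10 of 56 relations turned from negative to positive r: Drd3 and Htr1b with striatal markers 0.46 and 0.92, Drd2 with midbrain dopaminergic markers 0.77, Htr3a with caudal interneurons 0.86, Htr2b with meningeal fibroblasts 0.37, Drd2 with Drd3 0.44, Htr2a with Htr2c 0.87, Hrh2 with choroid plexus 0.64, Drd1 with caudal brainstem 0.43 and Htr2c with Chrm1 0.88. With 2 principal components as covariates 28.7% of slopes were called (23.1% over all genes), 44 slopes changed sign, 8 of 56 relations lost their call and 1 receptor, Htr7, differed between blocks (9.91% of all genes). Without the 5% of libraries with the fewest genes 1 receptor, Chrm4, differed between blocks (3.49% of all genes). Under median ratio scaling 11 slopes changed sign and 3 relations gained a call. The cause was not tested. Hrh3, Chrm4 and Adra1a stayed at 1.5 times the trend or more in every alternative run on scaled values. Counting limits Drd3, Drd4, Htr2b, Htr3b and Adrb3, whose means lie under 0.5 CPM.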

Other observations

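The remaining relations between receptors and markers were tested with the same permutations and adjustment as above. Adra2a, a Gi receptor of neurons and glia, rose with astrocyte markers (r = 0.37, rho = 0.35, within blocks 0.01 to 0.43) and hardly with noradrenergic markers (r = 0.11, rho = 0.05, adjusted permutation p = 0.0471 and 0.421). Adra1d rose with cortical markers (r = 0.44, rho = 0.42, within blocks -0.07 to 0.56) and not with hippocampal markers (r = 0.02, permutation p = 0.712), although under median ratio scaling the latter was called. Adra1b rose slightly with thalamic markers (r = 0.13, adjusted permutation p = 0.0179). Htr1f rose with cortical markers (r = 0.20, rho = 0.22, adjusted permutation p = 0.000364), with r = 0.02 once 2 principal components were covariates. Chrm1 and Htr2a, both Gq receptors of cortical pyramidal neurons, were tied weakly (r = 0.13, adjusted permutation p = 0.0223). Adra2b did not follow smooth muscle markers (r = 0.01, permutation p = 0.889). Drd1 fell as caudal brainstem markers rose (r = -0.53, rho = -0.53, within blocks -0.64 to -0.13), with r = 0.43 in values not scaled for depth. Htr2b fell with meningeal markers (r = -0.23, adjusted permutation p = 6.05e-05), with r = -0.01 once the components were covariates.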
